A study of Mus musculus with 12 samples.

Results

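Prostaglandins are made from arachidonic acid, and 9 genes of this route were followed here through the non-haematopoietic cells of the mouse joint: the cyclooxygenases Ptgs1 and Ptgs2, the terminal synthases Ptges, Ptgis and Ptgds, the receptors Ptger2, Ptger3 and Ptger4, and the degrading enzyme Hpgd. They were chosen by function, though with earlier results of these data known, and all 9 are among the 27998 genes of the count matrices. The 12 single-cell libraries held live CD45-negative cells from digested hind limb joints of young adult male C57BL/6 mice of WT genotype, each library a pool of cells from several animals. There were 3 libraries of untreated mice (rest, d0) and, after an intravenous injection of arthritogenic K/BxN serum (serum transfer-induced arthritis, STIA), 3 libraries each labelled peak (d7-9), resolving (d15) and resolved (d22). In this model antibodies of the donor serum start a joint inflammation that subsides by itself, so it stands for the effector phase of arthritis and not for its autoimmune onset.

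As background, a cyclooxygenase turns arachidonic acid, freed from membranes by phospholipase A2 enzymes such as Pla2g4a, into the unstable intermediate prostaglandin H2, and the terminal synthases turn that intermediate into single prostanoids. Ptgs1 is mostly expressed without a stimulus, whereas Ptgs2 is switched on within a short time by cytokines, growth factors, mechanical load and other signals, tissue handling included. Ptges (microsomal prostaglandin E synthase) gives prostaglandin E2, Ptgis gives prostacyclin and Ptgds gives prostaglandin D2. Prostaglandin E2 acts through receptors of the EP family, of which Ptger2 and Ptger4 raise cyclic AMP and Ptger3 mostly lowers it, and Hpgd (15-hydroxyprostaglandin dehydrogenase) starts its breakdown. In joints this route is the target of the non-steroidal anti-inflammatory drugs, and synovial fibroblasts are a known source of prostaglandin E2.

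Of 21042 deposited cells, 20060 were kept (1227 to 2747 per library, 7468914 to 16566202 UMIs in each), no barcode was shared between libraries, and the median depth was 5358 UMIs per deposited cell in every library. Clusters were named from marker genes, giving 11228 fibroblast-like cells in 10 clusters, 1770 vascular endothelial-like, 1398 osteoblast-like, 748 tenocyte-like, 655 perivascular-like, 621 proliferating, 313 chondrocyte-like, 266 muscle-like and 186 lymphatic endothelial-like cells, and small Schwann-like (108), immune-like (112) and erythroid-like (61) groups. The immune-like cells remained in spite of the CD45-negative sort, and 2594 cells in 3 clusters stayed unnamed. The unnamed cells are in no class below, although they held 19.3% of all Ptgis and 16.4% of all Ptges UMIs. The largest unnamed cluster, 3 (1581 cells), had 7 of 7 fibroblast markers detected. It had 340 cells in resolving replicate 2, 778 in resolved replicate 2 and 352 in rest replicate 3, the libraries of barcode suffixes 7 to 9. What these cells would change in the fibroblast-like values was not tested. Levels are given as CPM, a gene's UMIs scaled to the summed UMIs of all genes in the cells of a group in a library (counts per 1e6), as mean ± SD over libraries with at least 10 such cells. The libraries went against their labels in one respect that touches all values below: they resembled libraries with neighbouring barcode suffixes. Over 11758 genes of the fibroblast-like cells the most similar library stood in the same run of 3 consecutive suffixes (1 to 3, 4 to 6, 7 to 9 or 10 to 12) for 12 of 12 libraries and carried the same label for 0 of 12. Each run holds 3 different labels, and what a run was in the laboratory is not given in the sources used here. From suffix 1 to 12 the labels follow in the order rest, peak, resolving, resolved, repeated for each replicate. Whether the labels match the libraries was not tested.

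Ptgs1 (chromosome 2, 36230426 to 36252272, plus strand) and Ptgs2 (chromosome 1, 150100031 to 150108227, plus strand; mm10) encode the enzymes that perform the same reaction, and their expression differed so widely between the cells below that the reference bases just before both starts are shown, with those of Ptges (chromosome 2, 30889471 to 30929863, minus strand). They are the 250 bases before the RefSeq start (GRCm38.p6), 5′ to 3′ along the gene, with capitals for matches on either strand to 8 searched motifs: the cyclic AMP response element TGACGTCA, its shorter form CGTCA (contained in it), the E-box CACGTG, the C/EBP palindrome TTGCGCAA, the AP-1 motif TGANTCA, the NF-kB type motif GGGNNNNNCC, the TATA box TATAAA and the GC box GGGCGG.
Ptgs1, chr2:36230176-36230425: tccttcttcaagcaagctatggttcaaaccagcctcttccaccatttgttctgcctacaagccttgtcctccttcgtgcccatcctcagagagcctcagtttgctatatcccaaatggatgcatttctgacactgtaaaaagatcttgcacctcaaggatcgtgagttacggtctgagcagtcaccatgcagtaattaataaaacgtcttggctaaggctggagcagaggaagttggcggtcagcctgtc
Ptgs2, chr1:150099781-150100030: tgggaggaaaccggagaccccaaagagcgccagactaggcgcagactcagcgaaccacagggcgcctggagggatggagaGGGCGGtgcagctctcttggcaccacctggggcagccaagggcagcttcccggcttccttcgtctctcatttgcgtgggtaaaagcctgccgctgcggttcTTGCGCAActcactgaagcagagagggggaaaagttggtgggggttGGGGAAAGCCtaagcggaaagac
Ptges, chr2:30903298-30903547: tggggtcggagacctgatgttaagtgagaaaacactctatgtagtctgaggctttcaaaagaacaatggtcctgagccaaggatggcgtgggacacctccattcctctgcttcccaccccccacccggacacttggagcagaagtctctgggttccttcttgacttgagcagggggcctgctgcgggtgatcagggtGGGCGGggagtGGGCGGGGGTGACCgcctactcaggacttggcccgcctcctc
Ptgs2 just after its start, chr1:150100034-150100063: gtcaccactaCGTCACGTGgagtccgcttt
The Ptgs1 stretch held none of the 8 motifs, 48.0% G and C and 5 CG pairs, whereas that of Ptgs2 held 61.6% G and C and 13 CG pairs. A GGGNNNNNCC match of Ptgs1 lies 28 bases after its start, outside the bases shown. Ptgs2 carried TTGCGCAA, a palindrome of C/EBP type that begins 69 bases before its start and occurs in 0.164% of the 32851 windows searched, and it was the only member of the 8 with a RefSeq window to carry it. The other matches were common, since GGGNNNNNCC, of the NF-kB type, occurred in 45.8% of windows and GGGCGG in 32.7%, and in Ptges a GGGCGG match overlaps the GGGNNNNNCC match. In the 30 bases shown after the Ptgs2 start, CGTCA (17.8% of windows) overlaps CACGTG (6.02%) by 2 of its letters. These shares are those of the 250 bases before starts and not of 30 bases after them. These are letter matches and not binding sites. The RefSeq start used for Ptges lies inside the gene span given above, which reaches further upstream to 30929863. The window of Ptgis is not shown.

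The first question was in which cells of the joint each gene was found, with each class compared with the fibroblast-like cells by edgeR's quasi-likelihood test on UMIs summed per library, with the library as a block. A difference was called at a Benjamini-Hochberg adjusted p below 0.05 over 7803 genes and a log2 fold change beyond 0.5. Of the 9 genes, 7 passed the filter on low counts, and 40 of their 56 pairs with 8 classes were called, 11 higher and 29 lower than in fibroblast-like cells, against 39% of all pairs of genes and classes. Members called of 7 tested, with the share of all genes called in the same class, were 6 in vascular endothelial-like (54.2%), 6 in chondrocyte-like (49.8%), 5 in muscle-like (43.5%), 5 in perivascular-like (42.7%), 6 in lymphatic endothelial-like (42.5%), 3 in osteoblast-like (29.6%), 4 in proliferating (28.1%) and 5 in tenocyte-like cells (21.8%). In proliferating cells the call of Hpgd was lost when any of 8 libraries was left out (-1.04 to -0.73). That of Ptgds, with 0 UMIs there, was lost without any of 4 libraries (-2.55 to -2.44). Ptgds had 176 of its 239 UMIs in chondrocyte-like cells and may have passed the filter through them, so that its difference there was bound to be seen. Cells were clustered without these 9 genes, but the classes come from the same cells.

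Ptgs2 was at its highest mean levels in osteoblast-like, proliferating and fibroblast-like cells and close to nothing in vascular endothelium and muscle. In osteoblast-like cells its lowest, median and highest library were at 41.1, 131 and 365 CPM (155 ± 87.9, n = 12), in proliferating cells at 98.6, 125 and 256 CPM (146 ± 57.6, n = 6), in fibroblast-like cells at 37.7, 72.8 and 350 CPM (126 ± 112, n = 12) and in chondrocyte-like cells at 18.7, 70.9 and 201 CPM (76.1 ± 60.8, n = 8). The proliferating cells were measured in the libraries of suffixes 4 to 9 only, and in those of 4 to 6 they were at 120 to 256 CPM with fibroblast-like cells at 251 to 350. These 4 ranges overlapped, and none of the other 3 classes was called against fibroblast-like cells (osteoblast-like log2 difference 0.52, SE 0.23, adjusted p = 0.0539 by edgeR; higher in 10 of 12 libraries). In vascular endothelial-like cells the level was 3.89 ± 6.07 CPM, with log2 differences of -5.14 there, -3.42 in perivascular-like and -2.01 in tenocyte-like cells, all called. Lymphatic endothelial-like cells were at 17.9 ± 53.9 CPM (-3.34, called), with 12 of their 13 UMIs in peak replicate 2 at 171 CPM. Muscle-like cells held 0 Ptgs2 UMIs of 724744. With 3 UMIs over the whole group taken as the floor (4.14 CPM), fibroblast-like cells pooled over all 12 libraries (138 CPM) were 33.2-fold above it. That pooled value is no like comparison, since no library of suffixes 4 to 6 had enough muscle-like cells. In the other runs the fibroblast-like libraries were at 37.7 to 115 CPM. A Ptgs2 UMI was found in 22.3% of fibroblast-like cells (median depth 5450.5 UMIs) and in 1.07% of vascular endothelial-like cells (3181.5 UMIs). The part of free RNA in these shares was not tested. Of all Ptgs2 UMIs, 71.3% lay in fibroblast-like cells, the largest class.

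Ptgs1, the cyclooxygenase found in many resting tissues, had its highest class mean in vascular endothelial-like cells. Its lowest, median and highest vascular endothelial-like library were at 31.6, 55.8 and 93.8 CPM (57.4 ± 18.0), against 10.7, 20.8 and 27.8 CPM in fibroblast-like cells (19.6 ± 5.80). The ranges did not overlap, and the gene was higher in the endothelium of 12 of 12 libraries (log2 difference 1.31, SE 0.15). Among the fibroblast-like cells, however, the lining-like cluster 7 described below was at 83.8 ± 20.9 CPM, above the mean of the endothelial class. Within the endothelium, cluster 16 (Plvap, Selp, Lrg1, of venous and activated vessels) was at 83.8 ± 42.7 CPM and cluster 6 (Timp4, Cd36, Gpihbp1, of capillaries) at 39.4 ± 18.8 CPM, with overlapping ranges. Chondrocyte-like cells, deeper than all others at a median of 12509 UMIs, were at 26.4 ± 12.6 CPM with a called log2 difference of 0.72 that was lost without resolving replicate 1 (0.63), without the libraries of suffixes 1 to 3 (0.77) and with cells thinned to 2000 UMIs (0.37). Osteoblast-like, tenocyte-like and perivascular-like cells were at 4.05, 2.29 and 3.94 CPM, called lower by log2 differences of -2.35, -2.64 and -2.48, though the tenocyte-like value shrank to -0.40 and lost its call with coarser clusters. The osteoblast-like cells thus combined a high Ptgs2 level with a low Ptgs1 level, and the endothelium the reverse.

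Ptges, the inducible synthase of prostaglandin E2, followed Ptgs2 in its upper classes. It was at 24.3, 35.6 and 47.3 CPM (lowest, median and highest library) in fibroblast-like cells (36.1 ± 7.76), at 31.9 ± 5.64 CPM in osteoblast-like and at 28.0 ± 7.79 CPM in proliferating cells. No class was called higher and 7 of 8 were called lower than fibroblast-like cells, osteoblast-like cells being the exception (log2 difference -0.26). In chondrocyte-like cells the gene had 7 UMIs in all, 1.92 ± 2.54 CPM, a log2 difference of -4.01, although Ptgs2 was not called lower there. The call in proliferating cells (-0.54) was lost without rest replicate 2 (-0.47), peak replicate 2 (-0.52) or resolved replicate 2 (-0.49), and that in tenocyte-like cells (-1.09) with coarser clusters (-0.002). Gm13400 overlaps Ptges on the same strand in the annotation, so reads of the pair may not be separable.

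Ptgis, which makes prostacyclin, a vasodilator best known from endothelium, was not an endothelial gene in these joints. Tenocyte-like cells had the highest levels, from 434 over 784 to 1001 CPM (lowest, median and highest library; 764 ± 196), followed by osteoblast-like cells from 334 over 415 to 679 CPM (446 ± 99.6) and fibroblast-like cells from 75.6 over 125 to 230 CPM (143 ± 63.1). The osteoblast-like range lay wholly above the fibroblast-like range and overlapped the tenocyte-like range. Both classes were called higher than fibroblast-like cells in 12 of 12 libraries (log2 differences 2.60, SE 0.20, and 1.61, SE 0.20), and all 6 others were called lower. The call in proliferating cells (-0.86) was lost without resolved replicate 1 (-0.70), with DESeq2 (-0.81) and with coarser clusters (-0.56), and that in chondrocyte-like cells (-1.30) without the libraries of suffixes 1 to 3 (-0.50). Vascular endothelial-like cells were at 18.1 ± 15.9 CPM (log2 difference -3.25) and perivascular-like cells, which include smooth muscle, at 30.2 ± 28.7 CPM (-2.47). The gene has 1110018N20Rik and Gm14291 on the opposite strand.

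Ptgds was a gene of the chondrocyte-like cells. Its lowest, median and highest of 8 libraries there were 22.9, 44.5 and 131 CPM (56.3 ± 36.6), and a UMI was found in 37.4% of these cells against 0.312% of fibroblast-like cells. Fibroblast-like libraries were at 0.606 ± 0.513 CPM, and the log2 difference was 6.45 (SE 0.34; higher in 8 of 8 libraries). As the gene may have passed the filter through the chondrocyte-like cells, this difference is only a description. Muscle-like cells were at 10.2 ± 12 CPM (log2 difference 3.47, higher in 4 of 8 libraries). The called difference of lymphatic endothelial-like cells (2.88) came from a library at 59.7 CPM, and without that library, resolving replicate 3, it was 0.76 and not called.

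Among the receptors, Ptger4 was called higher in a single class. Vascular endothelial-like libraries ran from 8.78 over a median of 41.5 to 75.4 CPM (42.8 ± 23.8) and fibroblast-like ones from 9.66 over 17.1 to 25.6 CPM (17.6 ± 4.99), with overlap and a log2 difference of 1.05 (SE 0.19; higher in 10 of 12). The endothelial level went with the suffix run, at 54.9 to 61.5 CPM in libraries 1 to 3 and 66.3 to 75.4 CPM in 10 to 12 against 20.0 to 27.9 CPM in 4 to 6 and 8.78 to 28.1 CPM in 7 to 9. It also went with the endothelial cluster, since the capillary cluster 6 was at 80.2 ± 20.4 CPM, from 36.1 to 113, and the venous cluster 16 at 13.3 ± 10.5 CPM, from 2.18 to 31.9, with no overlap. The mean of Ptgs1 was thus higher in the venous and that of Ptger4 in the capillary cluster, a comparison given without a test. Gm15937 and Ttc33 lie on the opposite strand of Ptger4, Gm43621 on that of Ptgs1, and Gm17173 and Gm49364 on that of Ptger2.

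Ptger3 had 84.9% of its UMIs in fibroblast-like cells (18.9 ± 10.2 CPM, from 7.12 to 35.2) and did not pass the filter for the class comparison. Proliferating cells were at 10.5 ± 4.61 CPM, perivascular-like cells at 6.21 ± 6.24 CPM, and all other classes with at least 6 libraries below 1 CPM. Lymphatic endothelial-like cells held 0 Ptger3 UMIs of 744414. Ptger2 was scarce everywhere, with 293 UMIs in the whole data set, no class above 8.24 CPM and 1.96 ± 0.887 CPM in fibroblast-like cells. It did not pass the filter either, and differences between classes were not detectable at this depth.

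Hpgd, which inactivates prostaglandin E2, was highest where Ptgis was highest. Tenocyte-like libraries were at 21.2, 88.3 and 280 CPM (lowest, median and highest; 104 ± 72.5) and osteoblast-like ones at 27.0, 91.4 and 126 CPM (84.1 ± 31.2), against 9.81 ± 4.44 CPM in fibroblast-like cells, whose highest library was 20.6 CPM. Both classes lay above the fibroblast-like range in every library, with log2 differences of 3.44 (SE 0.22) and 3.04 (SE 0.20), and osteoblast-like cells alone held 36.4% of all Hpgd UMIs. In chondrocyte-like cells the called difference of 1.85 was 0.35 and not called without the libraries of suffixes 1 to 3, whose levels were 45.8 to 85.1 CPM against 0 to 27.3 CPM in the others. Lymphatic endothelial-like cells held 0 Hpgd UMIs of 744414, at least 2.38-fold lower than fibroblast-like cells, and perivascular-like cells 1 UMI. Gm45540 overlaps Hpgd on the same strand.

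**Figure D1:**
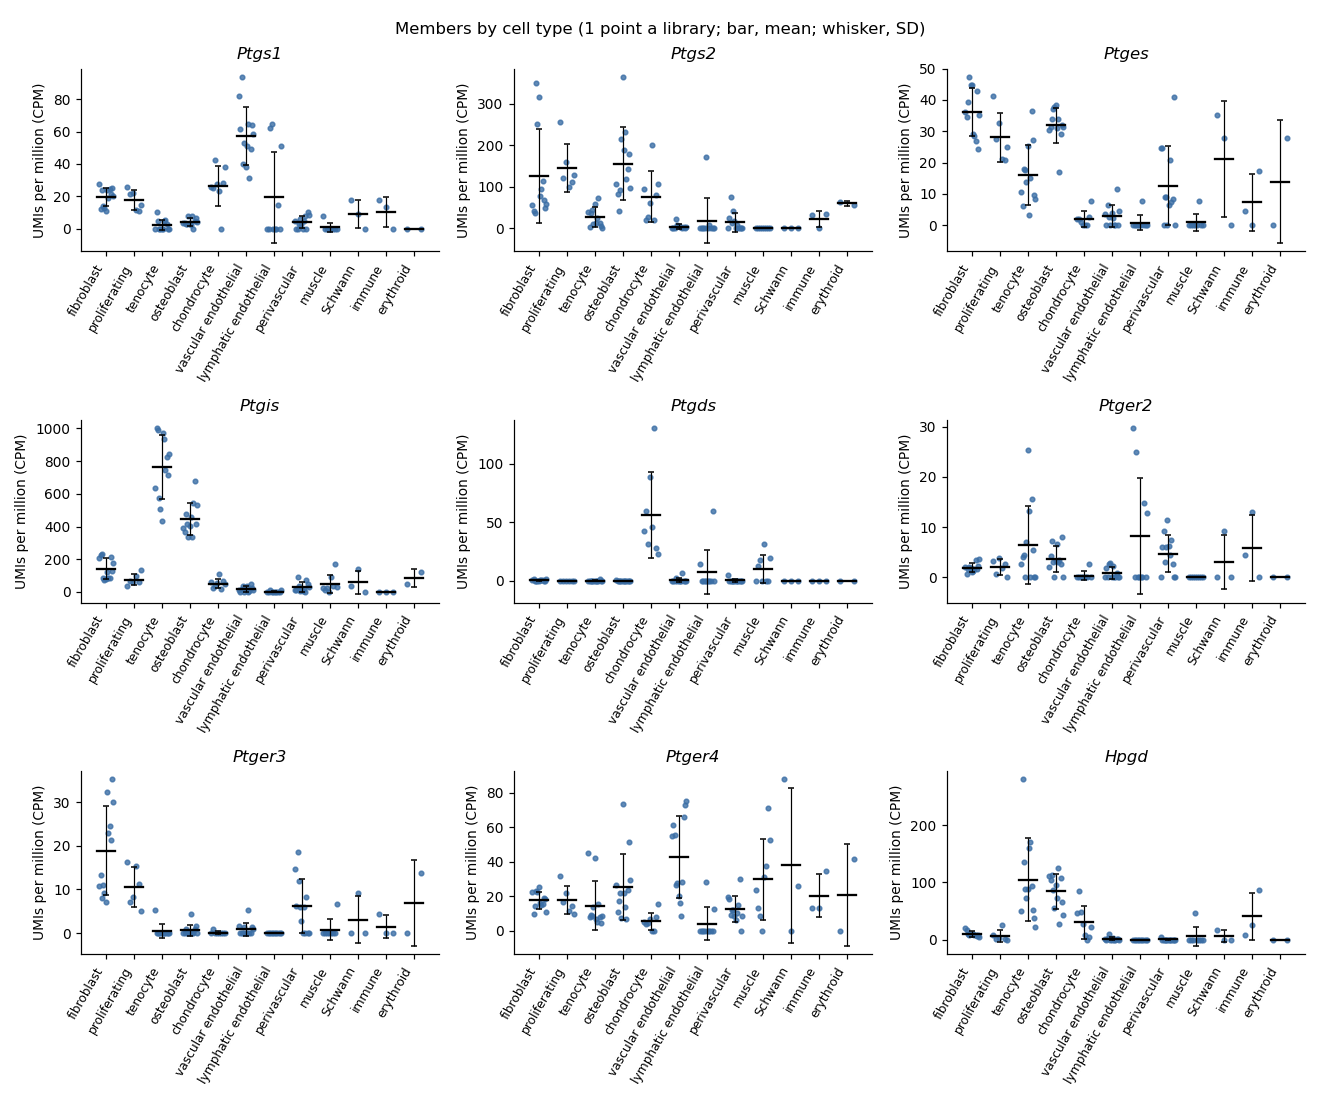
Level of each of the 9 genes in each named cell class, in CPM, with a point for each library, a bar for the mean and whiskers for the SD over libraries. Ptgs1 and Ptger4 lead in vascular endothelial-like cells, Ptgis and Hpgd in tenocyte-like and osteoblast-like cells, Ptgds in chondrocyte-like cells (56.3 ± 36.6 CPM), and Ptger3 in fibroblast-like cells.

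In a wider list of 46 genes of prostanoid and other eicosanoid metabolism, 20 passed the filter of the class comparison. Vascular endothelial-like cells had 5 of them called higher and 12 lower, against 54.2% of all genes called there. The higher ones were Pparg, a nuclear receptor for fatty acid derivatives (log2 difference 4.71), Ltc4s, the leukotriene C4 synthase (3.83), Abcc4 and Slco2a1, which carry prostaglandins out of and into cells (2.66 and 1.36), and Lta4h (0.52). In tenocyte-like cells the phospholipase Pla2g5 (3.03) and the prostaglandin F receptor Ptgfr (0.88) were higher and 4 genes lower, with 21.8% of all genes called. The prostacyclin receptor Ptgir was higher in perivascular-like cells (2.49, 12 of 12 libraries), where Ptgis was lower, and lower in osteoblast-like cells (-2.80), where Ptgis was higher. In vascular and lymphatic endothelial-like, chondrocyte-like, muscle-like and proliferating cells both genes were called lower, and in tenocyte-like cells Ptgir was not called (0.12). Chondrocyte-like cells had 3 genes higher, with Pla2g5 at 3.18 in front, and 10 lower (49.8% of all genes called), and osteoblast-like cells 1 higher, Fam213b at 0.69, and 9 lower (29.6%). Immediate early genes, which respond to tissue digestion as well as to signals, were called in both directions beside these values, 4 higher and 6 lower of 19 in osteoblast-like cells and 4 and 4 in vascular endothelial-like cells, and their part in the Ptgs2 levels was not tested. Scaling by total counts in place of TMM moved the median log2 difference of all genes by up to 0.499 (lymphatic endothelial-like cells), and by 0.275 in vascular endothelial-like cells.

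The second question was how the genes were divided among the fibroblast-like cells. The 10 clusters were a lining-like one (cluster 7, with Prg4 and Clic5), a sublining-like one (cluster 1, Pi16 and Dpp4) and 8 others known by their leading genes: 2 (Ifi205, C4b, Ccl7), 4 (Saa3, Sfrp1, Cxcl5), 8 (Angptl7, Fbln7, Gpnmb), 9 (Dkk2, Penk, Serpina3c), 10 (Ccl11, Hsd11b1), 11 (Il1rl1, Col5a3), 13 (Nppc, Col8a1, Sfrp4) and 18 (Hp, Fbln7, Mmp11). Clusters 4 and 11 had enough cells in 6 libraries, cluster 18 in 7 and the others in 12. Each was tested against the average of the other 9 on the log scale, a yardstick that lies below the plain mean for genes that peak in a single cluster. Of 70 pairs of 7 genes and 10 clusters, 50 were called (27 higher, 23 lower) against 22.9% of all pairs over 7241 genes. Members called of 7 tested, with the share of all genes, were 4 in cluster 11 (32.9%), 6 in cluster 7 (32.1%), 7 in cluster 13 (30.6%), 6 in cluster 2 (28.9%), 4 in cluster 4 (21.6%), 5 each in clusters 9 (18.8%), 10 (18.6%), 8 (15.7%) and 18 (12.4%), and 3 in cluster 1 (17.7%). Ptgds and Ptger2 did not pass the filter, and Ptger3, with 68.9% of its fibroblast UMIs in cluster 7, may have passed through that cluster.

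The lining-like cluster was high in Ptgs1 and Ptger3 and low in Ptgs2, Ptges, Ptgis and Hpgd. Ptgs1 was at 53.6, 81.3 and 129 CPM (lowest, median and highest library; 83.8 ± 20.9), above every library of every other fibroblast cluster, the nearest being cluster 1 at 28.7 ± 11.3 CPM with a maximum of 44.8. Ptger3, the EP receptor that mostly lowers cyclic AMP, was at 49.5, 101 and 166 CPM (102 ± 38.1), while 8 of the 9 other clusters had means of 1.68 to 11.1 CPM and cluster 18 had 33.2 ± 45.9 CPM with a library at 135 CPM. The log2 differences were 3.5 (SE 0.14) for Ptgs1 and 4.12 (SE 0.16) for Ptger3, both higher in 12 of 12 libraries. Since Ptger3 may have passed the filter through this cluster, its difference here was bound to be seen and is only a description. Ptgs2 was at 15.2 ± 13.3 CPM there (log2 difference -2.37), Ptges at 7.22 ± 9.04 (-2.74), Ptgis at 14.2 ± 6.65 (-2.79) and Hpgd at 0.672 ± 1.33 (-3.35, and -3.01 with no call without resolved replicate 2), each lower in 12 of 12 libraries. Cluster 18 had lower means still of Ptgis and Hpgd, and the lining-like ranges of Ptgs2 and Ptges overlapped those of cluster 18. Ptger4 was at 19.3 ± 6.45 CPM and was not called. Ptgs1 in the lining was thus accompanied by low levels of the synthases measured here.

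The highest mean levels of Ptgs2 were those of clusters 4 and 11, which were measured only in the libraries of suffixes 4 to 9. Cluster 4 libraries were at 201, 298 and 444 CPM (lowest, median and highest; 303 ± 92.9, n = 6) and cluster 11 libraries at 73.8, 223 and 431 CPM (251 ± 140, n = 6), followed by cluster 2 at 76.1, 134 and 248 CPM (145 ± 63.0) and cluster 10 at 20.2, 105 and 172 CPM (108 ± 41.3). All 4 ranges overlapped their neighbours. In the libraries of suffixes 4 to 6, clusters 4 and 11 (317 to 444 and 273 to 431 CPM) both lay above cluster 2 (214 to 248), whereas in those of 7 to 9 cluster 4 did (201 to 280 CPM) and cluster 11 did not (73.8 to 174 against 88.2 to 194 in cluster 2). The log2 differences against the other clusters were 2.28, 1.78, 1.57 and 0.96, with a higher level in 6 of 6, 6 of 6, 12 of 12 and 9 of 12 libraries. Clusters 7, 9 (-1.60), 18 (-1.37) and 13 (-0.83) were called lower, and so was cluster 8 (-0.64), a call lost when rest replicate 3, resolving replicate 1 or 3, or any resolved replicate was left out (-0.54 to -0.69). Clusters 4 and 11 made up 20.6% of the fibroblast-like cells and held 46.5% and 24.7% of their Ptgs2 UMIs. Inflammatory genes of activated fibroblasts, a list of 20 with 18 tested, were called in these clusters in unequal numbers. There were 14 higher and none lower in cluster 4, 16 higher and 1 lower in cluster 2, and 7 higher and 3 lower in cluster 10. Cluster 11 had 6 higher and 3 lower, the lower ones being Icam1, Il6 and Nfkbia. Of the 19 immediate early genes tested, 10 were higher and none lower in cluster 2, 2 higher and 3 lower in cluster 4, and 1 higher and 14 lower in cluster 11, while cluster 8 had 15 higher with Ptgs2 low. The part of these genes in the Ptgs2 levels was not tested.

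Ptges was spread more evenly over the clusters than Ptgs2. Cluster 10 was in front at 42.9, 66.1 and 99.2 CPM (lowest, median and highest library; 67.8 ± 17.1), with clusters 9, 13, 2 and 4 at 57.1 ± 19.6, 49.8 ± 10.9, 44.4 ± 10.2 and 44.3 ± 5.95 CPM, overlapping ranges and called log2 differences of 1.22, 0.80, 0.65, 0.82 and 0.53, the last of which lost its call under total-count scaling (0.49). Cluster 11, with high Ptgs2, was at 38.2 ± 11.2 CPM and was not called (0.13), and cluster 9, with low Ptgs2, was called higher for Ptges. The highest levels of both enzymes thus fell in different clusters.

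Ptgis was called in 9 of 10 fibroblast-like clusters, as were Ptgs1 and Ptgs2. Clusters 13, 8, 1, 9 and 2 were at 341 ± 53.3, 300 ± 105, 266 ± 53.2, 201 ± 56.3 and 162 ± 23.0 CPM, with log2 differences of 2.31, 2.09, 1.90, 1.56 and 1.40. Clusters 4, 11 and 10 were at 64.4 ± 20.4, 53.1 ± 8.44 and 34.4 ± 25.6 CPM, with every library below the lowest of clusters 13, 8, 1, 9 and 2 (112 CPM). The call of cluster 11 (-0.59) was lost without resolved replicate 2 (-0.28) and without the libraries of suffixes 7 to 9 (-0.21). Cluster 18 was at 2.39 ± 3.64 CPM (log2 difference -4.51). Clusters 4 and 11, called higher for Ptgs2, were thus below 5 other clusters in Ptgis, although cluster 4 was not called (-0.09) against a log average that includes the very low clusters 7 and 18.

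Hpgd was highest in cluster 13 (35.6 ± 17.9 CPM, from 12.8 to 69.4; log2 difference 2.81, 12 of 12 libraries) and cluster 9 (27.9 ± 16.3 CPM, from 4.39 to 56.7; 2.14, 10 of 12), clusters that also were high in Ptgis and Ptges. All other clusters had means of 13.7 CPM or less. Ptger4 was highest in the same cluster 13 (39.4 ± 12.2 CPM, from 18.5 to 57.9; log2 difference 1.29, 12 of 12) and in cluster 4 (28.7 ± 5.60 CPM; 0.94, 5 of 6), and it was low in the sublining-like cluster 1 (5.87 ± 3.45 CPM; -2.0, lower in 12 of 12), where the mean Ptgs1 level was next to that of the lining-like cluster. Cluster 13, with Nppc, Col8a1 and Sfrp4 in front, thus had 4 genes higher (Hpgd, Ptgis, Ptger4 and Ptges) and 3 lower. Clusters 13 and 8 were named fibroblast-like from 7 of 7 fibroblast markers detected, but each also had 4 of 7 markers raised of the tenocyte list (which holds Tnmd and Scx), against 7 of 7 in the tenocyte-like cells, where Ptgis and Hpgd were highest too. With coarser clusters the tenocyte-like class held 2629 cells in place of 748, and the part of tenocyte-type cells in these values was not tested. The lower ones were Ptger3 (1.68 ± 1.86 CPM), Ptgs2 (36.1 ± 18.9 CPM) and Ptgs1 (6.57 ± 5.94 CPM), and for Ptgs1 the call (-0.84) was lost without rest replicate 1 or 2, peak replicate 3, resolving replicate 1 or 2, or resolved replicate 2 (-0.69 to -0.84). Ptgds and Ptger2 were at or below 4.09 and 5.97 CPM in every cluster, each at its highest mean in cluster 13.

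**Figure D2:**
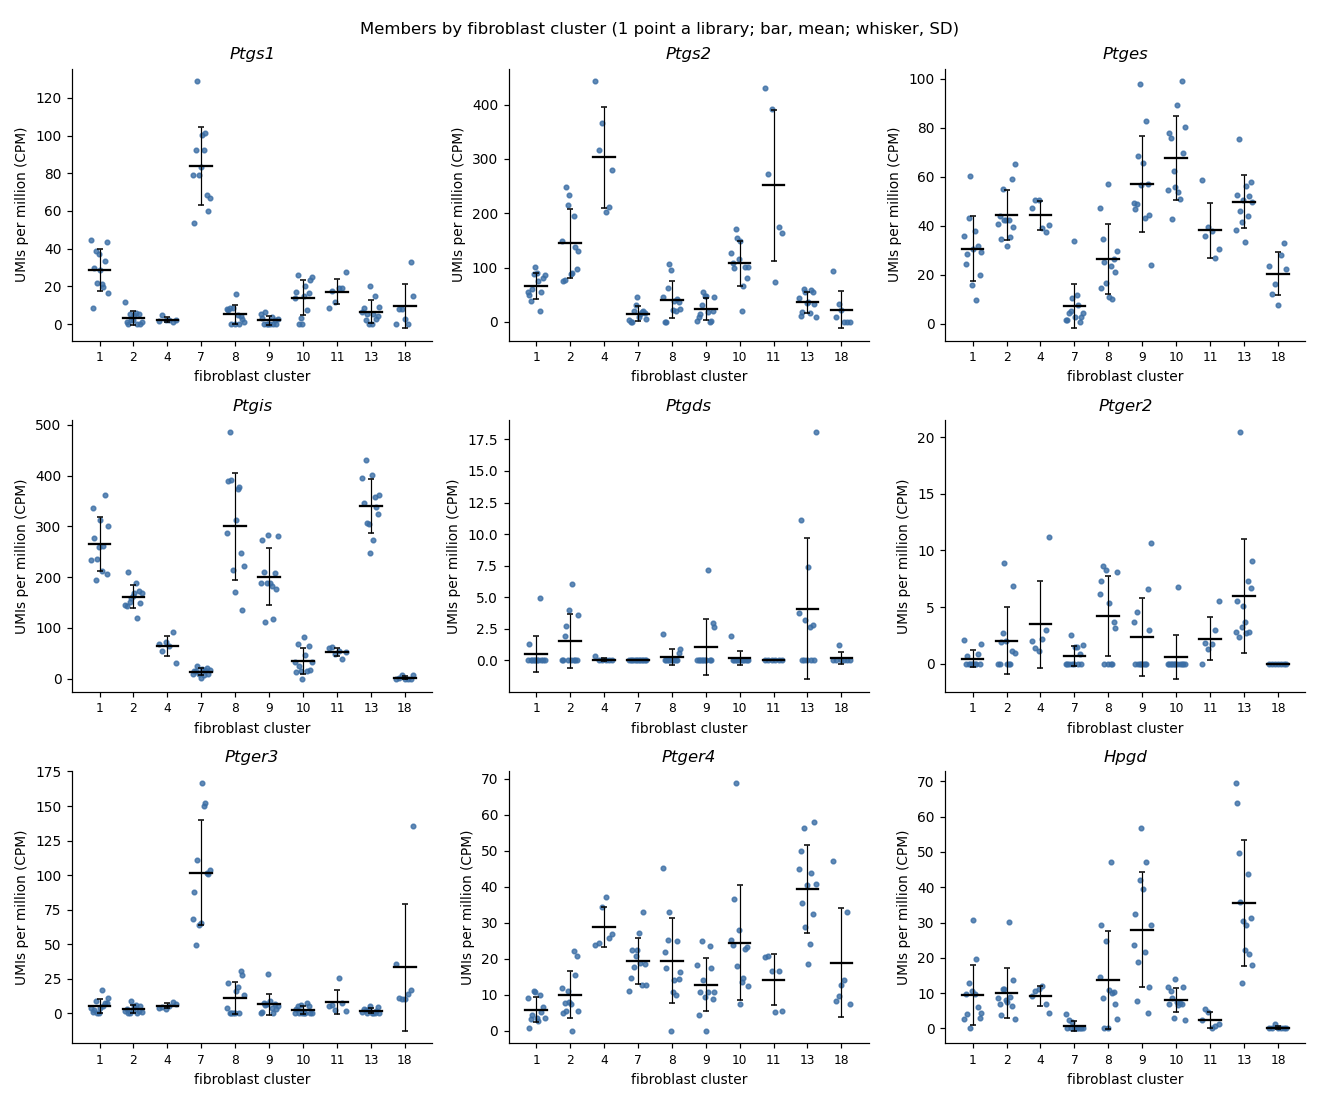
Level of the 9 genes in each of the 10 fibroblast-like clusters, in CPM, with a point for each library with at least 10 cells, a bar for the mean and whiskers for the SD. The lining-like cluster 7 leads in Ptgs1 (83.8 ± 20.9 CPM) and Ptger3 (102 ± 38.1 CPM), clusters 4 and 11 in mean Ptgs2 (6 libraries each, of suffixes 4 to 9), cluster 10 in Ptges and cluster 13 in Ptgis, Hpgd and Ptger4.

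Of the wider list, 22 genes were tested in the clusters. The lining-like cluster had 5 higher and 4 lower (32.1% of all genes called), led by the secreted phospholipase Pla2g2e (log2 difference 3.27, 12 of 12 libraries) and by Slco2a1, the uptake carrier (-3.15). Anxa1, a glucocorticoid-induced protein that dampens phospholipase A2 activity, was higher there (1.02) and in cluster 1 (0.64). Pla2g4a, the cytosolic phospholipase that feeds the cyclooxygenases, was higher in clusters 10 (1.25), 1 (0.97) and 11 (0.55) and lower in clusters 2, 8 and 13. Cluster 4 had 3 genes higher and 7 lower (21.6% of all genes called), and cluster 2, which shared its high Ptgs2, had 4 higher, with Slco2a1 (2.97), Pla2g5 (2.67) and Ptgir (1.72) in front, and 5 lower (28.9%). Ptgir, the receptor for the product of Ptgis, was higher in clusters 2, 10, 9 and 8 and lower in clusters 1, 4, 11 and 13. Of the 4 clusters with higher Ptgir, 2, 9 and 8 were also called higher for Ptgis and 10 lower, and of the 4 with lower Ptgir, 1 and 13 were called higher for Ptgis, 11 lower and 4 not.

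The study compared stages of the arthritis in Hk2-positive fibroblasts, with a Wilcoxon test on single cells, and reported inflammatory and matrix genes such as Ccl2 and Timp1 higher at peak. The comparison here took all fibroblast-like cells, summed per library, so the 2 are unlike in cells and in test. None of the genes was called here between the labelled stages. At peak, resolving and resolved against rest, 0 of 8 members tested and 0 of 11758 genes were called by edgeR (background 0% in each), with 66, 117 and 79 genes at an unadjusted p below 0.05. DESeq2 called 0, 0 and 1 gene, the last being Chil1 (log2 difference -2.30, named after its value was seen). Ptgs2 was at 56.0, 250.9 and 114.7 CPM in the rest libraries (141 ± 100), at 40.3, 316.0 and 66.9 CPM at peak (141 ± 152), at 37.7, 78.7 and 47.7 CPM in resolving (54.7 ± 21.4) and at 349.6, 95.5 and 58.9 CPM in resolved libraries (168 ± 158). The groups overlapped throughout, and the log2 differences from rest of -0.01 (SE 0.84), -1.40 (SE 0.87) and 0.24 (SE 0.85) had large errors, so that a change of Ptgs2 between labels was not detectable here. No library was most similar to one of its own label, so these comparisons cannot decide whether the genes change with stage. Ptges had log2 differences of 0.20, -0.26 and 0.05 (SE 0.26 each), Ptgs1 of -0.48, 0.18 and -0.23 (SE 0.31 each) and Ptger4 of -0.13, -0.33 and -0.29 (SE 0.34 to 0.35). Ptgis and Ptger3 had larger errors (SE 0.49 and 0.61 to 0.63), and Hpgd in resolved libraries, with the lowest unadjusted p of the members, had a log2 difference of -0.85 (SE 0.39; edgeR adjusted p = 1.0).

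Within each label the values of Ptgs2 were ordered by suffix run. The libraries of suffixes 4 to 6, labelled resolved, rest and peak, were at 250.9 to 349.6 CPM, those of 7 to 9 at 78.7 to 114.7, those of 10 to 12 at 47.7 to 66.9 and those of 1 to 3 at 37.7 to 56.0 CPM. In the run 4 to 6, Ptgs2, Ptges (44.6 to 47.3 CPM against at most 42.8) and Ptger4 (22.4 to 25.6 against at most 22.3) were above all 9 other libraries, 3 of 8 genes against 23.7% of all genes lying wholly above or below, and in the runs 1 to 3, 7 to 9 and 10 to 12 it was 0 of 8 (6.13%, 5.43% and 6.74% of all genes). Ptgis went another way, with 205 to 230 CPM in run 1 to 3, 131 to 214 in run 10 to 12, 83.5 to 120 in run 7 to 9 and 75.6 to 86.9 CPM in run 4 to 6. Ptger3 was at 7.12 to 13.4 CPM in the runs 1 to 3 and 4 to 6 and at 21.4 to 35.2 CPM in the runs 7 to 9 and 10 to 12. These runs were defined from the data's barcodes and carry no test.

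**Figure D3:**
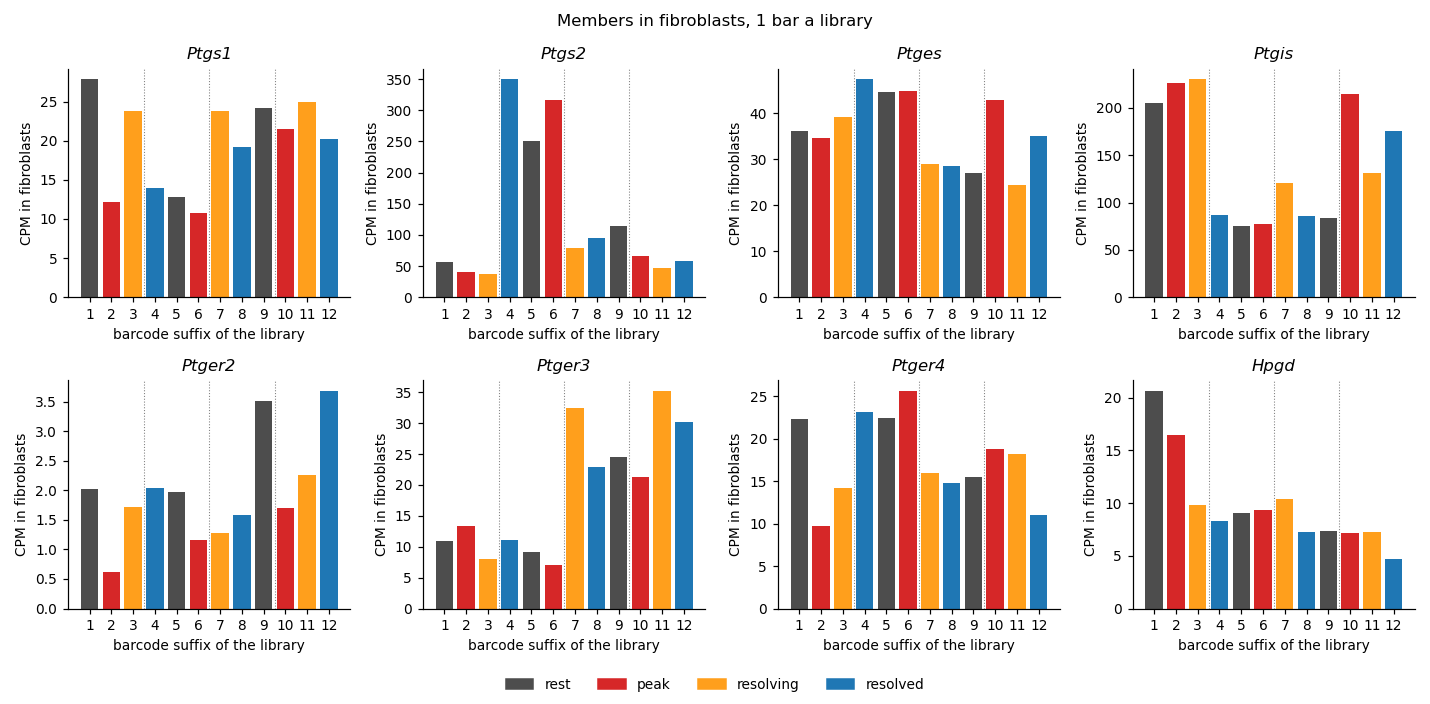
Level of 8 genes in the fibroblast-like cells of each library, in CPM, with bars ordered by barcode suffix and coloured by label. Ptgs2 stands at 250.9 to 349.6 CPM in the libraries of suffixes 4 to 6, which carry 3 different labels, and below 115 CPM in all others.

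The makeup of the fibroblast-like cells moved with these values. Clusters 4 and 11 together were 50.8 to 58.4% of fibroblast-like cells in the libraries of suffixes 4 to 6 and 21.6 to 30.4% in those of 7 to 9, but 0.120 to 0.438% in all others, and they held 88.7 to 92.5% and 61.5 to 76.4% of the Ptgs2 UMIs of the first 2 runs named. With both clusters left out, Ptgs2 was at 98.9 to 114.8 CPM in run 4 to 6, which still lay above the other runs. Runs 1 to 3, 7 to 9 and 10 to 12 were at 38.0 to 56.1, 36.8 to 49.5 and 45.6 to 67.3 CPM, and run 7 to 9 no longer stood above the rest. Both clusters had the highest mean Ptgs2, so leaving them out was bound to lower the runs that hold them. The part of the makeup in the differences between runs was not tested. Ptges without them was at 37.9 to 40.3 CPM in run 4 to 6, inside the span of the other runs (22.1 to 43.2). Ptger3 in run 4 to 6 was at 20.5 to 30.2 CPM without both clusters, overlapping the runs 7 to 9 and 10 to 12 (21.2 to 41.4), and Ptgis at 123 to 143 CPM, overlapping run 7 to 9 (103 to 148).

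Inside single clusters the level of Ptgs2 also differed by run. In cluster 4 it was at 317 to 444 CPM in the libraries of suffixes 4 to 6 and 201 to 280 CPM in those of 7 to 9, and in cluster 11 at 273 to 431 against 73.8 to 174 CPM. In cluster 2, present in all libraries, the run 4 to 6 was at 214 to 248 CPM and the 9 other libraries at 76.1 to 194, and in cluster 8 at 63.1 to 107 CPM against 0 to 45.3. In clusters 1, 7, 9, 10 and 13 the run overlapped the others, with 20.2 to 45.0 CPM in the lining-like cluster against 0 to 20.5. Outside the fibroblasts the run 4 to 6 did not stand apart in osteoblast-like (92.9 to 365 CPM against 41.1 to 233) or tenocyte-like cells (10.4 to 59.1 against 0 to 73.0). Vascular endothelial-like cells were at 6.01 to 21.2 CPM in that run and at 0 to 3.51 CPM elsewhere, on 26 UMIs in all.

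**Figure D4:**
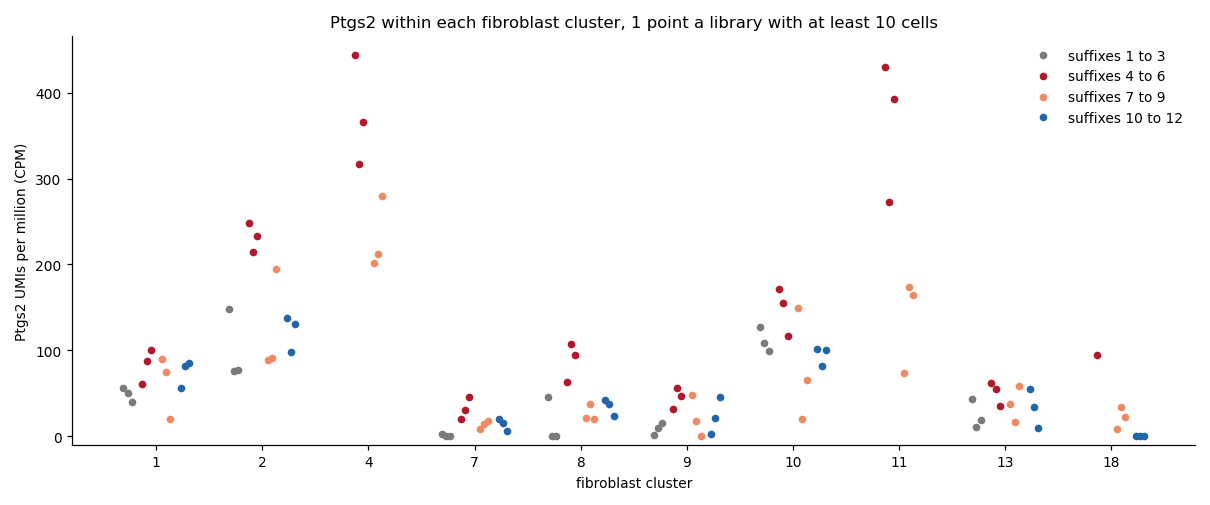
Ptgs2 level in each of the 10 fibroblast-like clusters, in CPM, with a point for each library with at least 10 cells, coloured by run of barcode suffixes. In clusters 2, 4, 8 and 11 the libraries of suffixes 4 to 6 lie above all others with that cluster (214 to 248, 317 to 444, 63.1 to 107 and 273 to 431 CPM), and cluster 18 has 1 library of that run.

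Fibroblast-like cells with a Ptgs2 UMI were then set against those without, to see which other genes of the route were found in the same cells. There were 2502 positive cells (975 of them with 1 UMI) and 8726 negative ones, with median depths of 7239 and 5106.5 UMIs. Of 10050 genes 629 were called (6.26%), 274 higher and 355 lower, and of 6 members tested 3 were called. Ptger3 was at 7.30 ± 7.14 CPM in positive and 22.7 ± 10.8 CPM in negative cells (log2 difference -1.39, SE 0.26; lower in 12 of 12 libraries), and Ptgs1 at 10.7 ± 6.39 against 23.8 ± 5.59 CPM (-1.21, SE 0.23; lower in 11 of 12). Ptger4 was at 20.3 ± 9.18 against 16.0 ± 3.81 CPM, a log2 difference of 0.50 at the edge of the limit (higher in 7 of 12) that lost its call without rest replicate 1 or 2, peak replicate 2 or 3, resolving replicate 2 or resolved replicate 2 (0.43 to 0.50) and with negative cells matched in depth (0.46). Ptges was at 40.9 ± 12.1 against 34.9 ± 7.12 CPM (0.32, SE 0.09; edgeR adjusted p = 0.0162, under the fold limit), and Ptgis and Hpgd were not called (-0.14 and -0.21). Ptgs1 was thus lower in the cells with Ptgs2, and it was still called (-0.58) when negative cells were drawn from the same clusters and libraries. In that matched fit Ptges was at 0.04 and Ptger3 could not be tested. A Ptges UMI was found in 25.8% of positive and 15.7% of negative cells, with the higher share in positive cells in 10 of 12 libraries. Cells of at least 2000 UMIs were also thinned to 2000, which left 1418 positive cells. The shares were then 9.10% and 6.63%, higher in positive cells in 7 of 12 libraries.

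The genes around these followed the clusters. The 5 largest rises shared by 12 of 12 libraries were those of Cxcl2 (log2 difference 1.56), Ccl2 (1.43), Adam12 (1.42), Ccl7 (1.32) and Ptx3 (1.30), chemokines and an acute-phase protein beside a metalloprotease, and the 5 largest falls those of Tspan15 (-3.22), Clic5 (-3.15), Gchfr (-2.95), Col22a1 (-2.88) and Rab37 (-2.85), of which Tspan15 and Clic5 were lining markers of the list used here. Of 19 inflammatory genes tested 10 were higher and none lower, with a median log2 difference of 0.82 against 0.004 for all genes, and Lif (1.88), Il6 (1.05) and Has2 (1.11) were among them. Of 19 immediate early genes 3 were higher (Fosl1, Nr4a3 and Nr4a2) and Fos was lower (-0.53). In the wider eicosanoid list 3 of 26 genes were called, with Pla2g4a higher (0.62, 12 of 12 libraries) and Pla2g2e (-1.11) and Cbr3 (-0.54) lower. With negative cells matched in cluster, Pla2g4a was at 0.38, Pla2g2e at -0.40 and Cbr3 at -0.42, none of them called.

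The study's own comparison, fibroblast-like cells with a UMI of Hk2 (hexokinase 2, a first enzyme of glycolysis) against those without, touched 2 of 7 members tested, against 646 of 9745 genes (6.63%). Ptgs2 was at 169 ± 138 CPM in Hk2-positive and 71.1 ± 59.7 CPM in Hk2-negative cells, a log2 difference of 1.37 (SE 0.08) with a higher level in 12 of 12 libraries, and it stayed called at 1.0 with negative cells matched in cluster. Ptgs1 was at 15.1 ± 6.06 against 24.5 ± 6.00 CPM (-0.59, SE 0.10; lower in 11 of 12). Both calls were lost without the library block, at nearly the same differences. Hpgd was at 7.74 ± 2.69 against 12 ± 6.59 CPM (-0.49, edgeR adjusted p = 0.0149, under the fold limit), and Ptges (0.12), Ptger4 (0.20), Ptger3 (-0.24) and Ptgis (-0.08) were not called. Of the wider list, 1 of 26 genes was called, the prostaglandin F receptor Ptgfr (-0.56). Inflammatory genes moved with Hk2 as with Ptgs2, with 15 of 19 higher, and 6 of 19 immediate early genes were higher.

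**Figure D5:**
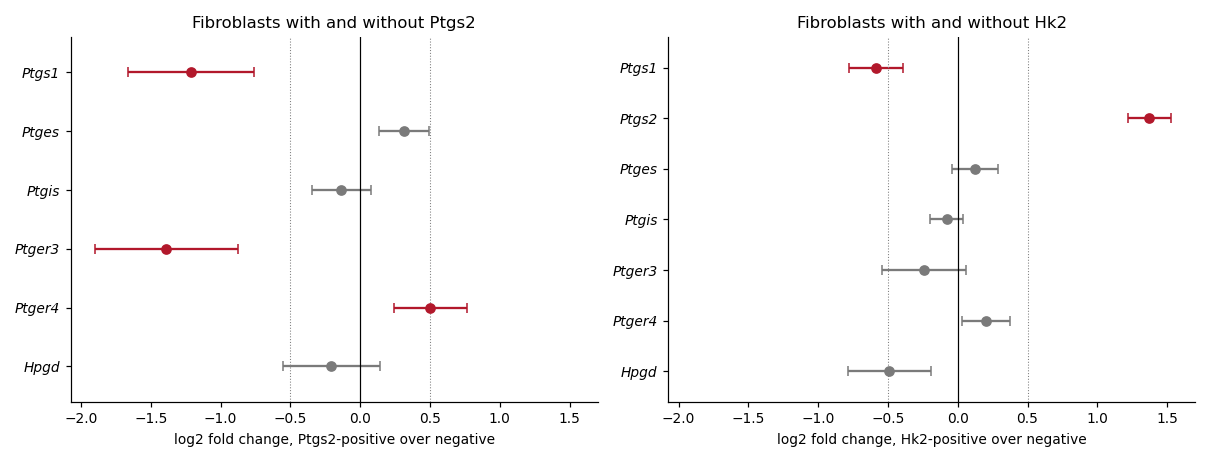
Log2 difference of each member between fibroblast-like cells with and without a Ptgs2 UMI and between those with and without an Hk2 UMI, with bars for the 95% interval, red for called genes and dotted lines at the limit of 0.5. Ptgs1 lies below zero in both comparisons (-1.21 and -0.59), Ptger3 in the first (-1.39), and Ptgs2 far above zero in the second (1.37).

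For each member the genes with the most similar pattern were listed by the Pearson correlation of log2(CPM + 10) over 21 cell groups, which share libraries and are not independent. Ptges was closest to Fgf7 (r = 0.931), Igf1 (0.913) and Angpt1 (0.895), growth factors secreted by stromal cells, and Ptger3 to Tmem196 (0.939), Htra4 (0.926) and Dlx3 (0.919), of which Htra4 was a lining marker used for naming. Ptgds was closest to Slc38a3 (0.954), 3110079O15Rik (0.945) and Col10a1 (0.944), the collagen of hypertrophic cartilage. Ptgis had Fam26e (0.863), Itgbl1 and Fbln1, Ptgs1 had Orai1 (0.835), Car8 and Atox1, Ptgs2 had Dclk1 (0.812), Col5a1 and Mia3, and Hpgd had Znhit6 (0.793), Kcnk2 and Wif1. Ptger4 had no close match (Cdk14, 0.620), and Ptger2 was too low for the comparison.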

How the data were processed

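The authors aligned and counted 10x 3′ reads with Cell Ranger on mm10 and deposited matrices of counts per gene and cell. They were used here as deposited and taken as UMI counts. As the median per deposited cell was 5358 in every library, they may not be the raw counts. How the medians came to be equal is not given in the sources used here. Cells with 500 to 5000 genes and at least 500 UMIs were kept, below a library's upper limit of 20000 to 40000 UMIs. Cells were clustered without batch integration (scanpy 1.11.5, 2000 variable genes, 30 components, Leiden resolution 1), with 55 genes of the route and Hk2 left out. Clusters were named from marker lists by limits set after the clusters were seen. Scrublet called 56 cells (0.279%), too few for a working caller, and none was removed. UMI counts were summed per library and group of at least 10 cells in at least 6 libraries and tested with edgeR 4.0.16 (TMM, filterByExpr, quasi-likelihood; library as block except between stages), with DESeq2 1.42.0 as an alternative. The script was tested on simulated counts. Replicates were pools of joints, so p-values between stages measure the spread between pools. In the other fits, with the library as block, they measure the spread of differences within libraries. Libraries of a suffix run resembled each other, so the pools may not be independent, which the p-values do not take into account. Named were all 9 genes, called genes of the lists (up to 8 per comparison, by size), the 5 largest changes each way with Ptgs2 status in 12 of 12 libraries, and the 3 most similar genes per member. Members and lists were chosen with earlier results of these data known. Promoter windows are RefSeq's (GRCm38.p6), found for 8 of 9 genes. Replicate numbers of the labels paired the libraries at most in part. Correlations of deviations with rest were 0.46 to 0.69 for replicates 1 and 2 of peak and resolving, and -0.53 to -0.06 for the others.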

Additional observations from a re-analysis of the deposited data

Results flagged for a closer look

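Among 15 groups of 4 to 10 libraries tested for a library far from the others, 2 held such a value, where chance gives about 1 in 20. Hpgd in proliferating cells was highest in resolving replicate 2, at 25.1 CPM (13 UMIs in 46 cells) against 8.48 CPM in the next of 6 libraries. Ptgs1 in chondrocyte-like cells was lowest in peak replicate 2, at 0 CPM (0 UMIs in 10 cells) against 23.2 CPM in the next of 8 libraries.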

How the results depend on the processing

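Of 56 pairs with cell classes, 40 were called, and 37 to 41 when a library was left out, but 25 of 32 testable pairs with cells thinned to 2000 UMIs. Of 70 pairs with fibroblast clusters, 50 were called (46 to 50 without a library), and 17 of 21 with coarser clusters (Leiden resolution 0.5). With Ptgs2 status 6 prostanoid genes were called (4 to 8 without a library), but 3 after thinning, 3 without the libraries of suffixes 4 to 6, 3 with no library block and 2 with negative cells matched in cluster. With Hk2 status 2 members were called (2 to 3 without a library) and 0 with no block. Genes called with Ptgs2 status fell from 629 to 295 after thinning, 397 without suffixes 4 to 6, 239 with no block, 334 with matched depth and 86 with matched clusters. Total-count scaling changed their split from 274 higher and 355 lower to 171 and 528, and that of Hk2 status from 386 and 260 to 236 and 593.

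No member was called between stages in any fit (0 to 0 without a library). The log2 difference of Ptgs2 at peak, -0.01, was 0.01505 with coarser clusters, 0.004173 with total counts, between -1.38 (without peak replicate 2) and 0.78 (without rest replicate 2) with a library left out, 0.02306 without suffixes 1 to 3 and 0.32 without suffixes 10 to 12. In resolved libraries, 0.24 became -0.90 (without resolved replicate 1) to 1.03 (without rest replicate 2) with a library left out, -0.17 without suffixes 1 to 3, -0.11 without suffixes 4 to 6 and -0.02371 with the suffix run as block. With the replicate block 0 members were called at any stage, and Ptgs2 was at -0.19, -1.27 and 0.57. The replicate numbers pair the libraries at most in part. Leaving out suffix runs was chosen after seeing the data. The cause of these changes was not tested. Of the values of single genes, 59 of 1236 lost their call without a library and 51 of 412 without a run. Depth limited Ptger2 and Ptgds outside cartilage most.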
